A study of Mus musculus with 10 samples.

Results

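The ADAMTS proteases that cleave proteoglycans are the subject of these results: Adamts1, Adamts4, Adamts5, Adamts8, Adamts9, Adamts15 and Adamts20. They were taken by gene symbol from the probe sets paired with exactly 1 gene, and where a gene had several probe sets the one with the highest mean over the 10 arrays stood for it. All 7 genes were measured, through 12 probe sets, among 19938 named genes. Expression had been measured in whole oviducts of prepubertal mice carrying a lacZ insertion in Pgr, the progesterone receptor gene. The insertion is known to remove both receptor isoforms, in every cell that would make them. Homozygous mice, called PRKO, were compared with heterozygous PR+/- mice, so the controls also carry 1 insertion allele, and no wild-type oviducts entered the comparison. All mice were given 5 IU of equine chorionic gonadotropin at 21 to 23 days of age, which drives follicle growth, and 5 IU of human chorionic gonadotropin (hCG) 44 to 47 h later, which triggers ovulation. Each array holds the pooled oviducts of 3 animals, taken 8 h after hCG, and each genotype has 5 arrays from 15 animals. Every value below is a log2 signal, the scale on which an array reports probe brightness, and a difference of 1 is a doubling.

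ADAMTS proteases are secreted zinc metalloproteases with thrombospondin repeats that hold them in the matrix. They are made as proenzymes, have the prodomain removed by furin-type convertases, and are blocked chiefly by the inhibitor TIMP3. The genes described here encode the branch that cuts the core proteins of versican and aggrecan, large chondroitin sulfate proteoglycans that bind hyaluronan. In the ovary, ADAMTS1 is known as a progesterone receptor-dependent protease of the preovulatory follicle that cleaves versican in the expanding cumulus matrix. The comparison asks how this branch differs in the oviduct when the progesterone receptor is missing at that time.

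The genotype labels were checked on Pgr (probe set 10583179), whose mean log2 signal was 6.36 in PRKO pools and 7.42 in PR+/- pools (log2 difference -1.06 ± 0.07, SE; two-sided exact permutation p = 0.00794). PRKO pools kept 48% of the heterozygous Pgr signal, and whether that remainder is transcript or background was not tested. Arrays correlated over genes at 0.9877 to 0.9924 within PRKO and 0.9945 to 0.9964 within PR+/-. Epithelial markers of the oviduct were present in both genotypes. Pax8, a transcription factor of its secretory cells, averaged 8.50 in PRKO and 8.51 in PR+/-, and Foxj1, the regulator of multiciliated cells, 7.05 and 7.16. PRKO replicate 3 and PR+/- replicate 4 stood apart by ovarian transcripts: the mean signal of 8 granulosa and theca markers was 5.18 and 5.34 there, against 4.26 to 4.55 on the other PRKO arrays and 4.30 to 4.34 on the other PR+/- arrays. Not every marker was raised. Cyp11a1 was 7.10 and 7.04 there, the highest of each genotype, but Foxl2, at 5.06 and 5.23, was the lowest of each genotype. Calls that changed without those arrays are given beside the gene or pair.

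Adamts1 and Adamts5 fell in PRKO oviducts, and no member rose. Adamts1 was 2.77-fold lower and Adamts5 1.80-fold lower, with no overlap between the 5 values of each genotype. The other 5 members, Adamts4, Adamts8, Adamts9, Adamts15 and Adamts20, did not pass the test at the probe set that stands for the gene. The test was a linear model in limma over all 19938 genes with Benjamini-Hochberg adjustment, and genes with an adjusted p under 0.05 were counted as changed. By that rule 4.96% of all genes changed, 3.87% falling and 1.09% rising, and 5.06% of all genes had every PRKO value below every PR+/- value. The median log2 difference was -0.35 over the 7 members and 0.03 over all genes. In whole oviducts a lower signal cannot be told apart from fewer cells of the type that makes the transcript.

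Adamts1 (probe set 10440522) had log2 signals of 7.32, 6.81, 7.29, 7.23 and 6.84 in PRKO replicates 1 to 5, against 8.39, 8.66, 8.65, 8.72 and 8.41 in PR+/- replicates 1 to 5. The lowest PR+/- pool lay 1.08 above the highest PRKO pool, so the gap between the genotypes was wider than the whole range within either. Means were 7.10 ± 0.25 in PRKO and 8.57 ± 0.15 in PR+/- (SD, n = 5 each), which left 36.1% of the heterozygous signal. The log2 difference was -1.47 ± 0.12 (SE; limma adjusted p = 3.71e-06). It was the 17th deepest of 19938 genes, among which Pgr itself stood at place 54. Leaving out PRKO replicate 3 and PR+/- replicate 4, the pools with ovarian transcripts, gave -1.48.

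The promoter of Adamts1 is shown because this gene had the deepest fall of the members, and that of Adamts9 is set beside it as the other member with lower signals whose promoter was among the sequences used. RefSeq start sites on GRCm38.p6 matched 3 of the 7 members, Adamts1, Adamts9 and Adamts20. Each line gives the 250 bases before the start, read 5′ to 3′ on the gene's strand. Capitals mark TATAAA, the TATA box, and GGGCGG, the GC box bound by SP1-type factors, in either orientation.
Adamts1, chr16:85803114-85803363, minus strand: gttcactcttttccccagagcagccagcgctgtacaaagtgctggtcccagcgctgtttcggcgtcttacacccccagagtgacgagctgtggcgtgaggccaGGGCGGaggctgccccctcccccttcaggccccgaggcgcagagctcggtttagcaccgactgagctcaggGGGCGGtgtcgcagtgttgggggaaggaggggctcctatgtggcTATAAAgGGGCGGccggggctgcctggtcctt
Adamts9, chr6:92943535-92943784, minus strand: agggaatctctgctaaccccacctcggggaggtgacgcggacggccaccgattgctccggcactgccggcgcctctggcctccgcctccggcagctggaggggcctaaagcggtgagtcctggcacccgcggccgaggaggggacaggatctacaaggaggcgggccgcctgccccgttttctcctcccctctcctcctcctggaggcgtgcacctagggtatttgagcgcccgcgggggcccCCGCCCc

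The Adamts1 window held 1 TATAAA, beginning 32 bases before the start, and 3 copies of GGGCGG, at 147, 76 and 25 bases before it. The Adamts9 window held no TATAAA and 1 GGGCGG on the opposite strand. That of Adamts20, which did not pass the test, held no TATAAA and 3 copies of GGGCGG. None of the 3 windows held AGAACA, the hexamer that progesterone and glucocorticoid receptors bind, on either strand. Among 32851 promoter windows of the same length, searched on both strands, 12.4% held TATAAA, 32.7% GGGCGG and 16.1% AGAACA. A match describes the letters in the window and was not tested as a site.

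Adamts5 (probe set 10440534), the main aggrecanase of mouse cartilage and a versican-cleaving enzyme in other tissues, had signals of 6.19, 6.16, 6.51, 6.41 and 6.24 in PRKO, against 7.17, 7.31, 7.12, 6.87 and 7.25 in PR+/-. The genotypes were separated by 0.36, with PRKO replicate 3 and PR+/- replicate 4 lying nearest to each other. Means were 6.30 ± 0.15 in PRKO and 7.15 ± 0.17 in PR+/- (SD, n = 5 each). The log2 difference was -0.84 ± 0.10 (SE; limma adjusted p = 1.15e-04), or 55.7% of the heterozygous signal. Without the pools that held ovarian transcripts it was -0.96.

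Adamts4 (probe set 10351551), an aggrecanase closely related to Adamts5, gave the one positive difference among the members. Its signals were 7.08, 7.38, 7.12, 7.23 and 6.90 in PRKO and 7.04, 7.07, 7.24, 7.09 and 6.75 in PR+/-, so the genotypes overlapped over most of their range. The log2 difference was 0.11 ± 0.10 (SE; limma adjusted p = 0.583), with a 95% interval of -0.12 to 0.33. The interval takes in no fall as deep as that of Adamts1 or Adamts5.

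**Figure D1:**
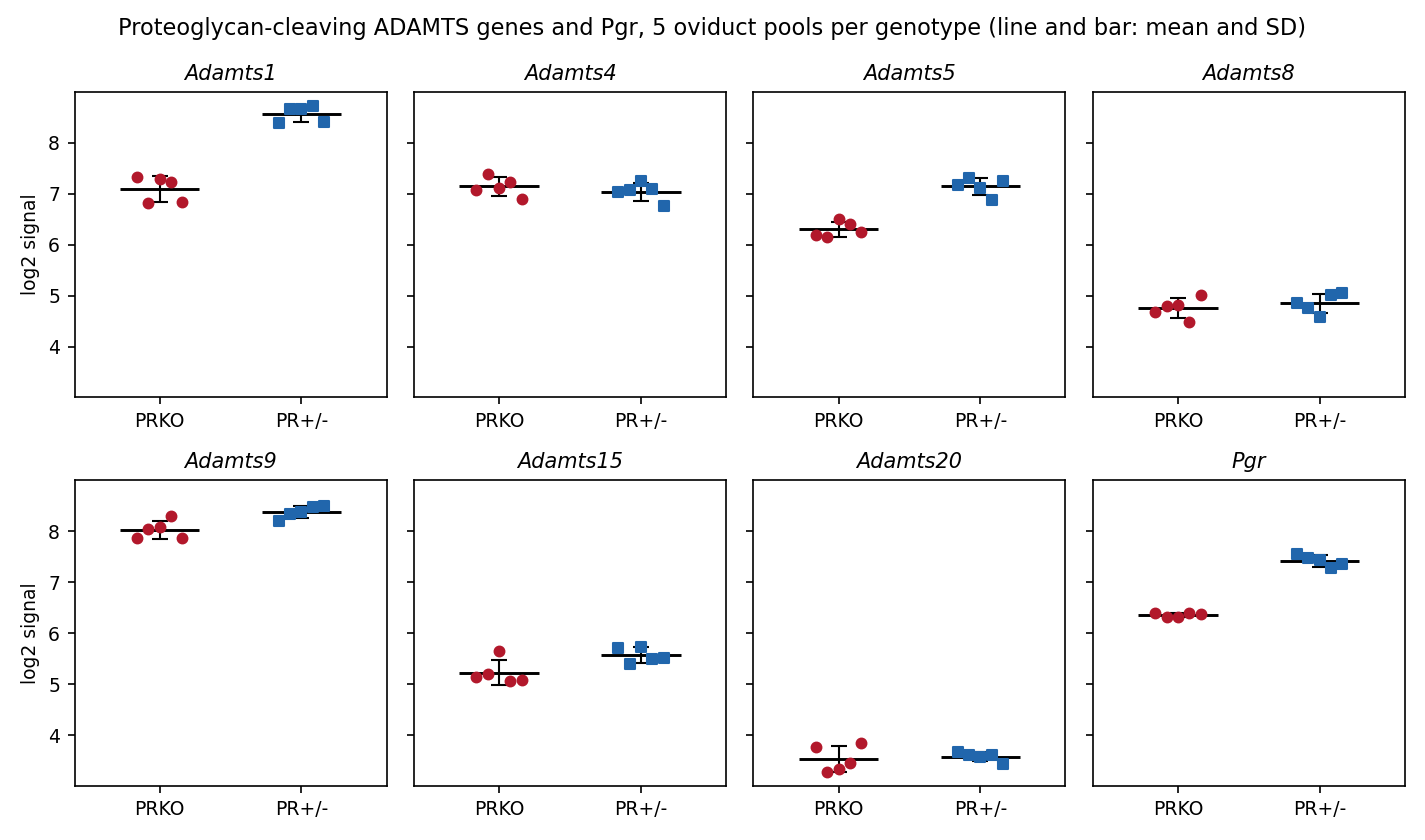
Log2 signal of the 7 proteoglycan-cleaving ADAMTS genes and of Pgr in 5 PRKO pools (circles) and 5 PR+/- pools (squares), with the mean and SD of each genotype; Adamts9 is shown by its brightest probe set. Adamts1, Adamts5 and Pgr have no overlap between genotypes, while the values of Adamts4, Adamts8, Adamts9, Adamts15 and Adamts20 overlap.

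Adamts15 (probe set 10591988), another versican-cleaving enzyme, had signals of 5.14, 5.21, 5.65, 5.06 and 5.08 in PRKO, against 5.72, 5.39, 5.73, 5.50 and 5.52 in PR+/-. Of the 5 PRKO pools, 4 lay below every PR+/- pool, and replicate 3 lay among them. The log2 difference was -0.35 ± 0.11 (SE; limma adjusted p = 0.0995). PRKO replicate 3 is a pool with ovarian transcripts, whose part in the result was not tested. Without it the log2 difference was -0.45 and passed (limma adjusted p = 0.0117), and without PR+/- replicate 4 as well it was -0.47 (limma adjusted p = 0.0234).

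The dimmest members, Adamts8 and Adamts20, did not pass. Adamts8 (probe set 10584047), a weak aggrecanase also known for inhibiting blood vessel growth, averaged 4.76 ± 0.20 in PRKO and 4.85 ± 0.19 in PR+/- (SD, n = 5 each). Its log2 difference of -0.09 had a 95% interval of -0.33 to 0.14, and it was -0.28 with the interquartile range of each array as a covariate (limma adjusted p = 0.401). That range was 3.13 to 3.42 on PRKO arrays and 3.37 to 3.48 on PR+/- arrays, so the covariate partly goes with genotype. Adamts20 (probe set 10431749), which mouse melanoblasts need to colonise the skin, averaged 3.54 ± 0.26 in PRKO and 3.58 ± 0.09 in PR+/-, and its PRKO values of 3.29 to 3.85 reached beyond the PR+/- range of 3.44 to 3.67 at both ends. Its log2 difference of -0.04 had a 95% interval of -0.28 to 0.19. It was -0.21 with that covariate (limma adjusted p = 0.563), -0.22 without PRKO replicates 1 and 5 (limma adjusted p = 0.153) and 0.02 without the arrays that held ovarian transcripts. Adamts20 was among the dimmest 30% of all probe sets and Adamts8 among the dimmest 50%, and the deposited table has no detection values, so whether either signal lies above background was not tested.

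Adamts9, a versican-cleaving protease that is the closest relative of Adamts20, was read by 6 probe sets, and they did not give the same call. The brightest (10546450) had signals of 7.86, 8.05, 8.08, 8.29 and 7.87 in PRKO, against 8.19, 8.34, 8.38, 8.47 and 8.50 in PR+/-. PRKO replicate 4 lay within the PR+/- range and the other 4 PRKO pools below it. The log2 difference was -0.35 ± 0.09 (SE; limma adjusted p = 0.0522), just short of the threshold.

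The other 5 probe sets of Adamts9 all fell when every row of the deposited table was tested. Their log2 differences ran from -0.84 to -0.40 (limma adjusted p 0.0115 to 0.0383), and for each of them all PRKO pools lay below all PR+/- pools. The gaps between the genotypes were narrow, from 0.03 at probe set 10546454 to 0.26 at 10546432. Of all 35557 rows, 1.84% fell in that test and 4.02% had every PRKO value below every PR+/- value. The dimmest probe set (10546432) showed the deepest fall, with signals of 5.84, 6.38, 6.09, 6.63 and 6.24 in PRKO and 6.93, 7.16, 7.21, 7.18 and 6.89 in PR+/-. These probe sets share 1 gene and the same arrays, so they are not independent of each other. The brightest probe set had a limma adjusted p of 0.108 in the test of every row. With the mean of the 6 probe sets standing for the gene, Adamts9 fell by 0.49 on the log2 scale (limma adjusted p = 0.00339). How far the probe sets differ from one another was not tested.

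**Figure D2:**
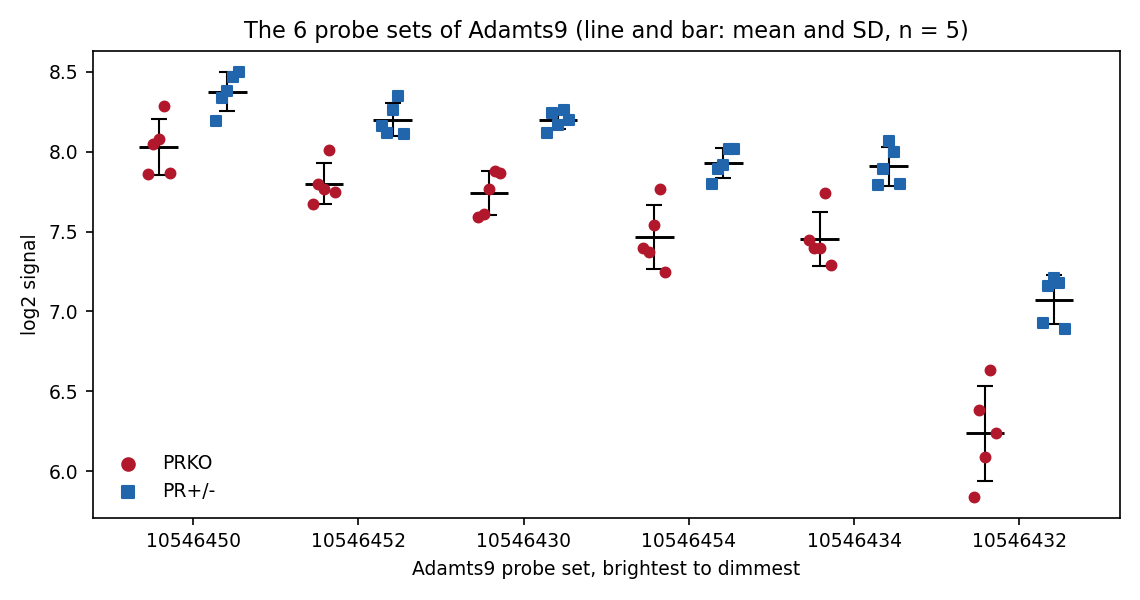
Log2 signal of the 6 Adamts9 probe sets in 5 PRKO pools (circles) and 5 PR+/- pools (squares), ordered from the brightest to the dimmest, with the mean and SD of each genotype. The genotypes overlap at the brightest probe set, 10546450, and are apart at the other 5, by gaps of 0.03 to 0.26.

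To ask whether the members changed to different extents, the log2 signal of one gene was subtracted from that of another on each array, and these differences were compared between genotypes by two-sided exact permutation tests. Such a difference is free of a shift shared by all genes of an array, but not of differences in spread between arrays. In pairs with the dim members Adamts8 and Adamts20, a smaller change cannot be told apart from a signal too near background to show a fall. Of 21 pairs, 12 differed at an adjusted p under 0.05 over the 21 pairs. The pairs share genes and arrays, so they are not independent of each other. Every called pair except Adamts4 with Adamts9 holds Adamts1 or Adamts5, the members already called. Adamts1 fell by more than each of the 6 others. Its log2 change was 0.62 deeper than that of Adamts5 (-0.62; exact p = 0.00794, adjusted p = 0.0167) and furthest from that of Adamts4 (-1.57, at the same p-values), where 0.00794 is the smallest p that 5 against 5 arrays can give. Adamts5 in turn fell by more than Adamts15 (-0.50; exact permutation test, adjusted p = 0.0167), Adamts20 (-0.80; adjusted p = 0.0167) and Adamts8 (-0.75; adjusted p = 0.0278). It also differed from Adamts9 at its brightest probe set (-0.50; exact permutation test, adjusted p = 0.0278), but with the mean of the Adamts9 probe sets the difference was -0.35 and did not pass (adjusted p = 0.0595). With that mean, Adamts9 fell by more than Adamts20 (-0.45, exact permutation test, adjusted p = 0.0278), which did not pass at the brightest probe set (-0.30, adjusted p = 0.265). Without PRKO replicate 4, the change of Adamts8 lay 0.39 above that of Adamts9 at its brightest probe set (exact permutation test, adjusted p = 0.0278). Between the closely related aggrecanases, the change of Adamts4 lay 0.95 above that of Adamts5 (exact permutation test, adjusted p = 0.0167). The change of Adamts4 also lay 0.45 above that of Adamts9 (exact permutation test, adjusted p = 0.0167), while its difference from Adamts15 was as large and did not pass (0.45; adjusted p = 0.0513). That pair passed without the arrays that held ovarian transcripts (0.59; exact permutation test, adjusted p = 0.0462), without PRKO replicate 3 alone (0.56; adjusted p = 0.0167) and under quantile or cyclic loess normalization (0.51; adjusted p = 0.0385 each). Without PRKO replicates 1 and 5, the arrays that correlate least with their group, 10 pairs passed by exact permutation tests. Adamts5 then lost its calls against Adamts8 (-0.63; adjusted p = 0.0865) and Adamts9 (-0.55; adjusted p = 0.0625), and Adamts4 its call against Adamts9 (0.44; adjusted p = 0.0625), while Adamts4 and Adamts20 differed (0.43; adjusted p = 0.0375).

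**Figure D3:**
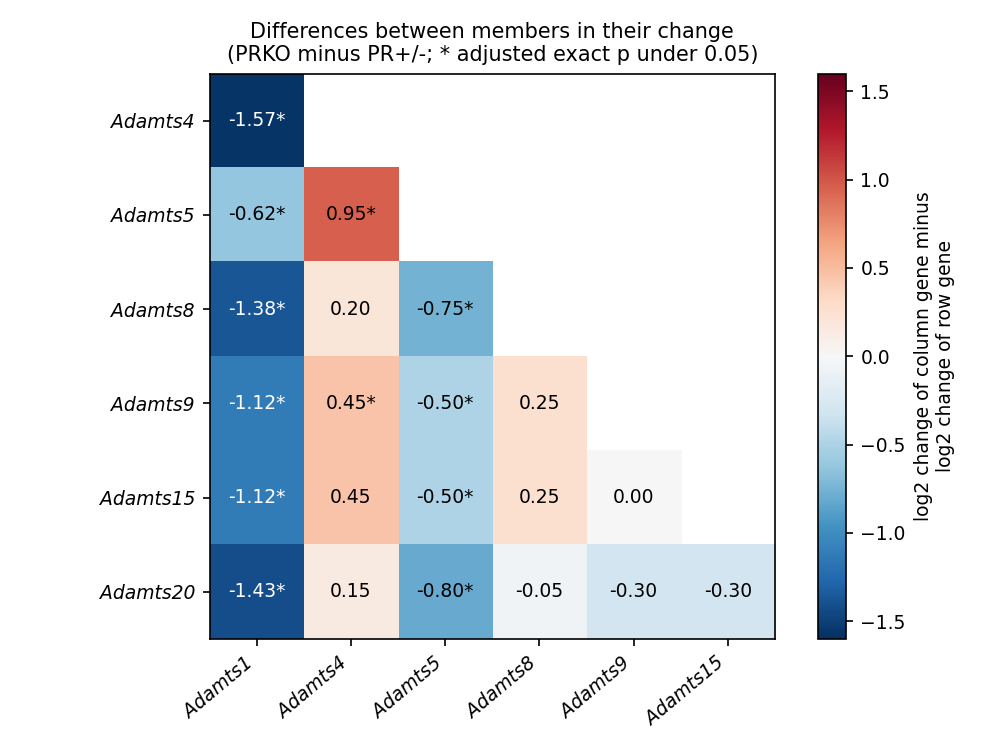
For each pair of members, the log2 change (PRKO minus PR+/-) of the column gene minus that of the row gene, in log2 units, with an asterisk where the exact permutation p, adjusted over 21 pairs, was under 0.05. The Adamts1 column is negative throughout, from -1.57 against Adamts4 to -0.62 against Adamts5, and 12 pairs carry an asterisk.

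Position on the chromosome was the next property examined. Adamts1 and Adamts5 are next to each other on chromosome 16 among the measured protein-coding genes, by the order in the GRCm38 gene table. The genes on either side of that pair did not pass: Cyyr1 had a log2 difference of -0.17 (limma adjusted p = 0.241) and N6amt1 one of -0.10 (limma adjusted p = 0.481). Adamts15 and Adamts8 are likewise neighbours on chromosome 9, flanked by Snx19 (0.06) and Zbtb44 (-0.12), and none of those 4 genes passed. Beside Adamts9 on chromosome 6, Prickle2, a gene of planar cell polarity, fell by 0.38 (limma adjusted p = 0.0191), and Magi1, on the other side, had a log2 difference of -0.14 (limma adjusted p = 0.279).

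The genes whose pattern over the 10 arrays was most like that of each called member were found by centring each gene on its PR+/- mean and taking the root mean square difference from the member, over 17159 candidate genes. This measure weighs mostly the size of the genotype difference. Nearest to Adamts1 were Des, the intermediate filament desmin of muscle (0.199 log2 units from Adamts1; log2 difference between genotypes -1.51), and Fxyd4, a regulator of the sodium pump (0.206; -1.37). Plpp3, a lipid phosphate phosphatase (0.232; -1.35), the receptor inhibitor Errfi1 (0.234; -1.64) and the endocytic receptor gene Lrp2 (0.240; -1.42) followed. Nearest to Adamts5 were Mcam, an adhesion molecule of muscle and vessel walls (0.0897; -0.86), Spock2, the proteoglycan testican 2 (0.113; -0.82), Clic4, a chloride channel protein (0.117; -0.85), Pgm5, found at muscle adhesion sites (0.120; -0.96), and Tgfbr3, the proteoglycan betaglycan (0.122; -0.95).

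Markers of smooth muscle moved with genotype. All 6 fell (Acta2, Actg2, Myh11, Des, Cnn1 and Tagln), and the mean of their log2 signals on an array was 9.08 to 9.31 in PRKO and 10.01 to 10.23 in PR+/-. Among 5 stromal fibroblast markers 2 fell, Pdgfra and Col6a3, with array means of 9.04 to 9.31 in PRKO and 9.24 to 9.58 in PR+/-. Among 5 endothelial markers Pecam1 and Emcn fell (6.15 to 6.39 in PRKO and 6.41 to 6.53 in PR+/-), and of 4 mesothelial markers Msln did (7.59 to 7.98 and 7.84 to 8.09). No measured marker of secretory, multiciliated, leukocyte, granulosa and theca or oocyte type passed. Of the listed markers, 4 of 5 secretory, 5 of 6 leukocyte and 8 of 10 granulosa and theca genes were measured. The secretory marker Ovgp1 was not among the named genes, so its change is unknown here. The part of these cell types in the lower Adamts1 and Adamts5 signals was not tested.

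Among the 11 other ADAMTS proteases that were measured, 2 fell. Adamts12, which cleaves cartilage oligomeric matrix protein, averaged 6.68 ± 0.10 in PRKO and 7.20 ± 0.07 in PR+/- (SD, n = 5 each), a log2 difference of -0.52 ± 0.07 (SE; limma adjusted p = 5.72e-04). Adamts6 averaged 5.20 ± 0.31 in PRKO and 5.70 ± 0.05 in PR+/- (-0.50 ± 0.12, SE; limma adjusted p = 0.0274), and its call was lost, at a limma adjusted p of 0.0544 to 0.0675, without PRKO replicate 1 or any one of the PR+/- replicates. The Adamts6 difference was -0.29 without PRKO replicates 1 and 5 (limma adjusted p = 0.0689) and -0.30 with the interquartile range of each array as a covariate (limma adjusted p = 0.429). The median log2 difference of the 11 was -0.07, beside -0.35 for the proteoglycan-cleaving members.

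**Figure D4:**
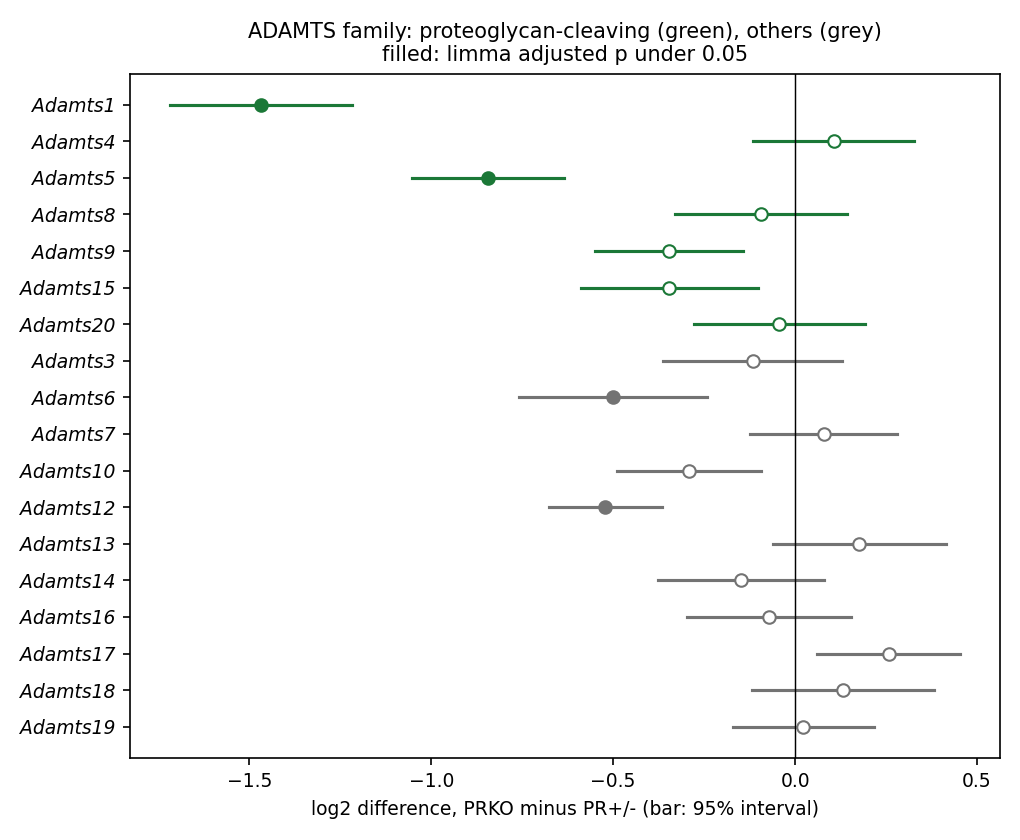
Log2 difference, PRKO minus PR+/-, with its 95% interval for the 7 proteoglycan-cleaving ADAMTS genes (green) and 11 other ADAMTS proteases (grey), filled where the limma adjusted p was under 0.05. Adamts1 at -1.47 and Adamts5 at -0.84 lie furthest to the left, followed by Adamts12 at -0.52 and Adamts6 at -0.50.

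The substrates of these proteases were followed next. None of the 4 genes of the lectican family, the versican and aggrecan class of core proteins, passed in limma, and the unadjusted p of each was above 0.05. Vcan, encoding versican, had signals of 6.43, 6.87, 7.52, 6.84 and 6.47 in PRKO, against 6.56, 7.03, 7.17, 7.99 and 6.99 in PR+/-. In each genotype the highest value was on the array with ovarian transcripts, PRKO replicate 3 and PR+/- replicate 4. The log2 difference was -0.32 ± 0.24 (SE; limma adjusted p = 0.458), with a 95% interval of -0.83 to 0.19, and -0.28 without those arrays (limma adjusted p = 0.358). It also varied with PRKO replicate 3 alone, whose omission gave -0.49, and with PR+/- replicate 4 alone, whose omission gave -0.11. Acan, encoding aggrecan, averaged 3.12 in PRKO and 3.10 in PR+/-, a difference whose sign changed with the normalization.

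Of 13 other genes for reported substrates of these enzymes, 2 fell, and the remaining 11 did not pass. Bgn, the small proteoglycan biglycan, averaged 8.33 ± 0.21 in PRKO and 9.38 ± 0.07 in PR+/- (SD, n = 5 each), with a log2 difference of -1.05 ± 0.10 (SE; limma adjusted p = 1.41e-05). Nid1, the basement membrane protein nidogen 1, averaged 7.04 ± 0.17 in PRKO and 7.72 ± 0.08 in PR+/- (-0.68 ± 0.09, SE; limma adjusted p = 2.85e-04).

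Hyaluronan is the scaffold to which versican binds, through link proteins. Of 20 genes for hyaluronan synthesis, breakdown and binding, 1 fell, 1 rose and 18 did not pass. Itih5, a heavy chain of the inter-alpha-trypsin inhibitor family that attaches to hyaluronan, averaged 5.42 ± 0.15 in PRKO and 6.22 ± 0.23 in PR+/- (log2 difference -0.80 ± 0.11, SE; limma adjusted p = 5.14e-04). Its relative Itih3 rose by 0.34 ± 0.07 (SE; limma adjusted p = 0.0157), at low signals of 4.49 in PRKO and 4.15 in PR+/-. The call of Itih3 was lost without PR+/- replicate 1 (limma adjusted p = 0.0521), without the arrays that held ovarian transcripts (limma adjusted p = 0.0755), without PRKO replicates 1 and 5 (limma adjusted p = 0.0565), under quantile (limma adjusted p = 0.0660) or cyclic loess normalization (limma adjusted p = 0.0745) and with the interquartile range covariate (limma adjusted p = 0.0973). The hyaluronan synthase gene Has2, which drives cumulus expansion in the ovary, had a log2 difference of 0.21 (limma adjusted p = 0.154). The other synthase genes, picked out after their values were seen, had larger differences that did not pass. Has1 was at 0.58 (limma adjusted p = 0.0802) and Has3 at 0.30 (limma adjusted p = 0.175).

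Genes for inhibition, activation and clearance of the proteases moved in both directions: of 17, 4 fell, 1 rose and 12 did not pass, 3 of them the inhibitor genes Timp1, Timp4 and Papln, picked out after their values were seen. Timp3, the main physiological inhibitor of ADAMTS4 and ADAMTS5, averaged 8.38 ± 0.17 in PRKO and 9.20 ± 0.11 in PR+/- (SD, n = 5 each), a log2 difference of -0.82 ± 0.09 (SE; limma adjusted p = 9.39e-05). Reck, a membrane-anchored protease inhibitor, fell by 0.58 (limma adjusted p = 3.57e-04) and Timp2 by 0.56 (limma adjusted p = 0.00281). With the interquartile range covariate Timp2 was -0.40 and lost its call (limma adjusted p = 0.118). Fbln1, the matrix protein fibulin 1 that binds ADAMTS1 as a cofactor, fell by 0.33 (limma adjusted p = 0.0431), but lost its call without any one array other than PRKO replicate 3 (limma adjusted p 0.062 to 0.0998).

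A2m, the broad protease trap alpha-2-macroglobulin, rose by 0.31 ± 0.07 (SE; limma adjusted p = 0.0190), at signals of 4.86 in PRKO and 4.55 in PR+/-. Its call was lost at a limma adjusted p of 0.0509 to 0.0652 without PRKO replicate 3 or any one of PR+/- replicates 2, 3 and 5. It was also lost without the arrays that held ovarian transcripts (limma adjusted p = 0.0836), without PRKO replicates 1 and 5 (limma adjusted p = 0.0506), under quantile (limma adjusted p = 0.0504) or cyclic loess normalization (limma adjusted p = 0.0541) and with the interquartile range covariate (limma adjusted p = 0.154). Furin, the convertase gene, and Lrp1, the endocytic receptor that clears ADAMTS4 and ADAMTS5, had log2 differences of -0.17 (limma adjusted p = 0.279) and -0.23 (limma adjusted p = 0.111).

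Versican and aggrecan carry chondroitin sulfate chains, and of 18 genes for their synthesis 2 fell and 16 did not pass. Chst12, a chondroitin 4-O-sulfotransferase, fell by 0.46 ± 0.10 (SE; limma adjusted p = 0.0145). The Chst12 call was lost without the arrays that held ovarian transcripts (-0.48; limma adjusted p = 0.0514), without moderation of variances (limma adjusted p = 0.0559) and with the interquartile range covariate (-0.35; limma adjusted p = 0.259). Chpf, a chain polymerizing factor, fell by 0.47 ± 0.12 (SE; limma adjusted p = 0.0437) and lost its call when any one array other than PRKO replicate 1 or 2 was left out (limma adjusted p 0.0757 to 0.100). Without both arrays that held ovarian transcripts Chpf was -0.46 (limma adjusted p = 0.142), and with the covariate -0.27 (limma adjusted p = 0.511). Over the 83 genes of these 6 lists, the other ADAMTS genes included, 11 fell (13.3%) and 2 rose (2.41%), beside 3.87% and 1.09% of all genes. The lists were chosen with earlier results of these data known, so these shares are no test of enrichment. The list medians ran from -0.12 for inhibition, activation and clearance to 0.07 for hyaluronan genes, against 0.03 for all genes.

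**Figure D5:**
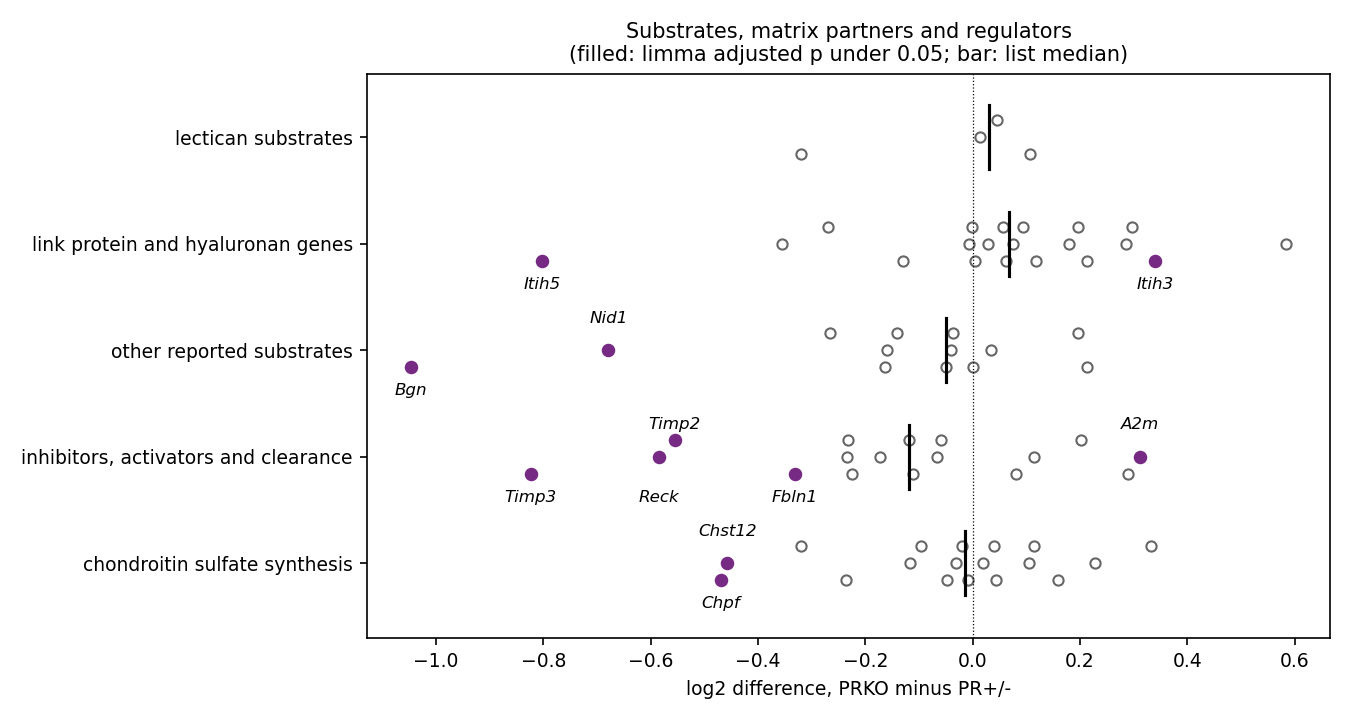
Log2 difference, PRKO minus PR+/-, of each measured gene in 5 lists around the ADAMTS proteases, with filled and named points where the limma adjusted p was under 0.05 and a bar at each list's median. Bgn at -1.05, Timp3 at -0.82 and Itih5 at -0.80 lie furthest from 0, and no lectican gene is filled.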

How the data were processed

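The deposited series table holds 1 value per probe set from 10 Affymetrix whole-transcript arrays. The authors had processed these log2 signal values before deposit, with Partek per the submitters' processing notes; version, summary and normalization methods were not given in the sources used. The log2 scale was inferred from the values, which run from 1.09 to 13.6 with array medians of 5.20 to 5.28. Of 35557 rows, 21789 were paired with exactly 1 gene symbol by the platform annotation, which gave 19938 genes, each by its brightest probe set. Genotypes were compared without further normalization in limma 3.58.1 (R 4.3.3) with lmFit, eBayes and Benjamini-Hochberg adjustment over all genes, after the script was tested on simulated data. No filter on dim probe sets was applied. Replicates are separate pools, and the p-values rest on the spread among them; 5 arrays per genotype limit the precision. No label says that same-number replicates share a day or batch, so the numbers were not treated as pairs. Their deviations correlated at -0.013 to 0.159, which does not settle whether they were paired. Genes were named by rule: all members and Pgr, every called gene of the lists, Vcan, Acan, Timp3, Lrp1, Has2 and Furin, the 5 nearest patterns of each called member, and neighbours by position. Of the list genes, Has1, Has3, Timp1, Timp4 and Papln were named outside this rule, after their values were seen. The members and lists were chosen with earlier results of these data known. Promoter sequences and gene order are from RefSeq on GRCm38.p6. In all, 24 alternative settings were tried.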

Additional observations from a re-analysis of the deposited data

Results flagged for a closer look

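In each genotype, a single array was looked for that stands apart from the other 4 by Dixon's criterion on the gap over the range. This was done for 26 genes, giving 52 groups of 5 arrays, of which 4 were picked out; chance picks out about 1 in 20. Adamts15 was 5.65 on PRKO replicate 3, against 5.06 to 5.21 on the other PRKO arrays (gap over range 0.741). Adamts12 was 6.51 on PRKO replicate 5, against 6.70 to 6.76 on the others (0.745). Timp2 was 7.91 on PRKO replicate 5, against 8.18 to 8.29 (0.715). Chst12 was 7.33 on PR+/- replicate 2, against 7.59 to 7.66 on the other PR+/- arrays (0.777).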

How the results depend on the processing

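Pgr, Adamts1 and Adamts5 kept their direction and their call under all 24 alternatives, Adamts1 between -1.52 and -1.40 and Adamts5 between -0.96 and -0.79, and Adamts4 was called under none of them. Adamts9 passed with median centring (-0.38), without the dimmest 30% or 50% of probe sets, with moderation along a variance trend or with replicate number as a block (-0.35 each), with array weights (-0.33) and with the mean of its probe sets (-0.49). Without single arrays it ran from -0.41 to -0.30 and passed only without PRKO replicate 4. Adamts15 passed without the 2 arrays of highest ovarian signal (-0.47) and, in a single-array range of -0.45 to -0.30, only without PRKO replicate 3. Called genes numbered 988 (217 rose, 771 fell). They numbered 322 (58 rose, 264 fell) with the array interquartile range as a covariate and 562 (73 rose, 489 fell) without the ovarian-signal arrays. The interquartile range was 3.13 to 3.42 in PRKO and 3.37 to 3.48 in PR+/-, so that covariate cannot be fully told apart from genotype. With it the SE of Itih3, for example, was 0.097 in place of 0.074, at a log2 difference of 0.37. Genes that rose numbered 142 with median centring, 133 with every row tested, 129 without moderation and 141 without the 2 PRKO arrays that correlate least with their group. Without single arrays 581 to 1165 genes were called, 84 to 330 rose and 497 to 882 fell, with 581 called without PR+/- replicate 1 and 598 without PR+/- replicate 2. Of the list genes 11 fell and 2 rose. Among the alternatives 7 fell without moderation and 6 with the covariate. Under quantile or loess normalization, with the covariate and without either pair of arrays, 0 rose. Without the dimmest 50% of probe sets 0 rose as well, but that filter removed Itih3 and A2m, so they were not tested there. Without single arrays 8 to 10 fell and 1 to 3 rose. Pairs of members called numbered 12 or 13 without single arrays, 13 without the ovarian-signal arrays and 10 without the 2 PRKO arrays. Small differences changed sign: Adamts20 was 0.02 without the ovarian-signal arrays (-0.12 to 0.02 without single arrays, and -0.22 without the 2 PRKO arrays), Furin 0.02 with the covariate, and Acan -0.09 under quantile and loess normalization, -0.02 with median centring, -0.10 with the covariate, -0.05 without either pair of arrays and -0.03 to 0.06 without single arrays. The change of Adamts8 less that of Adamts20 was 0.00 under quantile normalization and 0.07 without the 2 PRKO arrays (-0.12 to 0.03 without single arrays). That of Adamts9 less that of Adamts15 was 0.07 under quantile and loess normalization, 0.13 without the ovarian-signal arrays, 0.03 without the 2 PRKO arrays and -0.11 to 0.09 without single arrays. No label pairs the samples by replicate number. With the numbers as a block 1042 genes were called, and Fbln1 and Chpf lost their calls. The cause of these changes was not tested. The deposited table has no detection values, so how far the dimmest members lie above background is unknown.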
